A study of Mus musculus with 6 samples.

Results

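The array used here carries 60-base probes for candidate long intergenic noncoding RNA regions, 1 set for the forward and 1 for the reverse strand, each named by its region and strand letter. The probes described lie over 100 kb from every probe for a RefSeq coding transcript (accession prefix NM_), on either strand. There are 3118 such probes among 16181 region probes and 55681 non-control probes. They carry 990 names in 794 regions, which merge into 562 separate loci on 20 chromosomes, and 118 region probes without a position were left out. A name has a median of 3 probes (range 1 to 10), so probes of 1 name are not independent. The median region spans 13.7 kb and the longest 534.0 kb, and the median distance to the closest coding probe is 173.0 kb. The distance is measured to probes, which sit near the 3' end of most genes, and not to gene bodies. By the gene lengths in RefSeq (GRCm38.p6), 800 of the 3118 probes could lie inside a long coding gene.

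The RNA came from primary erythroid progenitors of mouse fetal liver, taken at E14.5 and isolated with a commercial selection kit. All cells were infected with retrovirus made in 293T cells and kept for 3 days in medium with erythropoietin, dexamethasone and kit ligand. In 3 samples the short hairpin RNA targeted Exosc8 (shExosc8). In the 3 control samples it targeted luciferase, an insect gene that mouse cells lack (shControl). Each sample was hybridised to its own single-colour array, and it is not labelled whether the replicates are separate litters or cultures, so p-values measure only a spread between arrays that may be technical. The series title puts the question as which transcripts depend on Exosc8 in these cells.

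The RNA exosome digests and trims RNA from its 3' end, and the protein made from Exosc8 is a structural part of its barrel-shaped core. In the nucleus it trims ribosomal and small nucleolar RNAs and removes short-lived transcripts, among them RNAs made upstream of promoters, from enhancers and from other intergenic DNA. Long intergenic noncoding RNAs are transcribed away from coding genes, are often kept in the nucleus and are usually present at lower levels than messenger RNAs.

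The array reads each strand separately, and in several regions probes of opposite strands overlap on the genome. Of 28 overlapping forward and reverse probe pairs that were both tested, all 28 are complementary over their whole overlap and 6 have a call on at least 1 strand. Of those, 5 pairs, each with a strand called higher, are printed here because the same stretch of DNA was read on both strands and gave different values. The sixth has a strand called lower and is given further on by its values alone. Each is written 5' to 3' as the probe in the deposited files, with the bases shared by the pair in capitals.
Pramel51 to Adck1, forward: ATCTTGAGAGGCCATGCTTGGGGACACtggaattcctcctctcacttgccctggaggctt
Pramel51 to Adck1, reverse: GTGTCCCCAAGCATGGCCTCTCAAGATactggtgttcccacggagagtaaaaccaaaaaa
Nipbl to Slc1a3, forward: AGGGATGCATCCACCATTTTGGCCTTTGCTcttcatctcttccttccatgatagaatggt
Nipbl to Slc1a3, reverse: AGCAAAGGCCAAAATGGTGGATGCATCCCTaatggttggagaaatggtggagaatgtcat
Peg10 to Ppp1r9a, forward: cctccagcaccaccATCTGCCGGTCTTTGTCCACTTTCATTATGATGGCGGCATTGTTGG
Peg10 to Ppp1r9a, reverse: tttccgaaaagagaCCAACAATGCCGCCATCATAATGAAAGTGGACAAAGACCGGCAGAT
Osbpl3 to Cycs, forward: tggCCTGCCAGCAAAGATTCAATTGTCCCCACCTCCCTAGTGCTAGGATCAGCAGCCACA
Osbpl3 to Cycs, reverse: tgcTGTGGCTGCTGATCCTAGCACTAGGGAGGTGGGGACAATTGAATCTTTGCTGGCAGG
Cibar2 to Gse1, forward: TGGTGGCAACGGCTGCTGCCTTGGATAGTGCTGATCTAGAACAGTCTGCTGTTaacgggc
Cibar2 to Gse1, reverse: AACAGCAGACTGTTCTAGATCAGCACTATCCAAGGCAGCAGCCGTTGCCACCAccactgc
The pairs share 27, 30, 46, 57 and 53 bases in that order. Regions are named by the closest coding probe on each side, which does not make those genes their targets.

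Further probes are shown because the largest changes rest on them, and these have no capitals. The Vps13c to Rora probe had the largest rise among probes seen on all arrays, the Jak1 to Ak4 probe the largest rise among probes not seen in the controls, and the Anxa4 to Aak1 probe is 1 of 5 neighbouring probes that all fell.
Vps13c to Rora, forward: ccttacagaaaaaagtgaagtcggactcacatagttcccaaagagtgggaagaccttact
Jak1 to Ak4, forward: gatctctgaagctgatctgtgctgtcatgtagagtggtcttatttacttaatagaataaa
Anxa4 to Aak1, reverse: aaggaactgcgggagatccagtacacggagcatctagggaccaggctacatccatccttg
A last probe reads the strand opposite the Mir18 hairpin, with the 30 bases that match the 96-base RefSeq hairpin in capitals.
Slitrk5 to Gpc5, reverse: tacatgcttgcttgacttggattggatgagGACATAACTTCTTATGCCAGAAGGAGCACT

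All 6 arrays lay on 1 slide from 1 scan, with the shExosc8 arrays in row 2 and the shControl arrays in row 1, and this split of the slide cannot be told apart from the groups. Across 21615 probes seen on every array, arrays of 1 group correlated at 0.985 to 0.997 and arrays of different groups at 0.953 to 0.978. The targeted gene had a scaled signal of 7158, 7080 and 10169 on shExosc8 replicates 1, 2 and 3, against 17440, 17323 and 18394 on the controls. Scaled signal is the scanner's processed intensity after each array was brought to a common 75th percentile. Exosc8 thus stood at 45.3% of control (log2 -1.14 ± 0.17, SE, n = 3 per group, adjusted p from limma 0.00606), with most left on replicate 3. Over the 6 values a two-sided exact permutation test reached p = 0.1, which is the lowest possible with 3 arrays a group. In mm9 this probe covers bases 54535935 to 54536079 of chromosome 3 (minus strand).

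Most of these regions gave little signal. The scanner software called 23.7%, 22.6% and 19.1% of the 3118 probes well above background on shExosc8 replicates 1 to 3. On shControl replicates 1 to 3 the shares were 26.7%, 52.7% and 22.4%. Replicate 2 of the controls thus stood apart, as it did for all other probes, where it reached 67.9% against 43.5% to 49.9% on the rest. On the other arrays the software replaced 44.0% to 59.8% of the members' values with surrogates because they were near 0, and on that array fewer. Of the 3118 probes 1354 were above background on no array and 750 on shControl replicate 2 only, while 491 were above on all 6. No member was saturated. Results below are given with and without shControl replicate 2 where they rest on it.

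**Figure D1:**
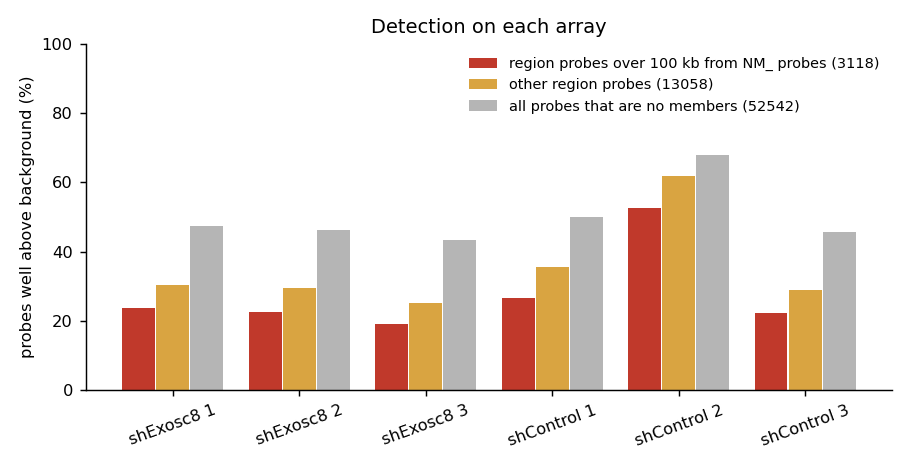
Bars give the percentage of probes called well above background by the scanner software on each of the 6 arrays, for the 3118 region probes far from coding probes, 13058 other region probes and all 52542 probes outside the first group. Probes dropped for outlier spots leave 55660 in all. The far region probes are the lowest class on every array, at 19.1% to 26.7%, and at 52.7% against 61.9% and 67.9% on shControl replicate 2.

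Among the 491 probes seen on all 6 arrays, 106 were higher and 34 lower in shExosc8. The background over all 21615 such probes was 27.6% called, 14.4% higher and 13.2% lower, against 21.6% higher and 6.92% lower of the 491. The rises had a median of 2.18-fold (log2 1.12, range 0.41 to 3.98). Of the 491, 62 were called higher by at least 2-fold (12.6%), against 8.42% of all 21615. The falls had a median log2 of -0.63 (range -0.91 to -0.37) and 0 reached 2-fold. Such falls were rare over all 21615 too, at 1.26%. A call here is an adjusted p under 0.05 from limma, fitted to every tested probe of the array. The median log2 difference of the 491 was 0.12, against -0.07 over all 21615. In 224 of the 491 (45.6%) the groups did not overlap, where the share over all probes was 51.7%.

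A further 190 members were seen on every array of 1 group only, 34 through shExosc8 and 156 through shControl. Of those, 18 were higher and 16 lower, each in the direction of the group that let it in. The filter favours that direction, so these calls are no support for it. With them 681 of the 3118 probes were tested and 124 were higher (18.2%) and 50 lower (7.34%), in 84 and 30 loci. Over all 24836 tested probes 27.8% were called, 14.7% higher and 13.1% lower. The 2437 probes left out include all those that stayed dim on both groups, so the counts describe the brighter members only.

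Region probes closer to coding probes were counted the same way. Among probes seen on all 6 arrays, 14.6% of region probes within 100 kb of a coding probe on the same strand were higher and 8.12% lower. For those near a coding probe on the opposite strand only, the shares were 16.3% and 11%. Probes outside the region set were at 14.2% and 14%. Over all tested probes the order was another, with 13.4% higher near a coding probe on the same strand and 13.9% on the opposite strand, under the 14.8% of probes outside the region set, and 18.2% of members. These shares were not tested against each other. Because dim probes differ less often, the 491 were also set beside all other probes in the same range of mean signal. They were split by signal into 4 classes of equal size. In the dimmest class (scaled signal 53.9 to 119.0) 13% of members and 11.6% of other probes were higher. The shares were 23.0% and 18.2% in the second class, 29.3% and 18.3% in the third and 21.1% and 12.3% in the brightest. The shares of falls among members were 1.63%, 5.74%, 9.76% and 10.6% from dim to bright, against 5.39%, 12.1%, 15.3% and 15% of other probes. For rises the gap between members and other probes was thus smallest in the dimmest class.

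**Figure D2:**
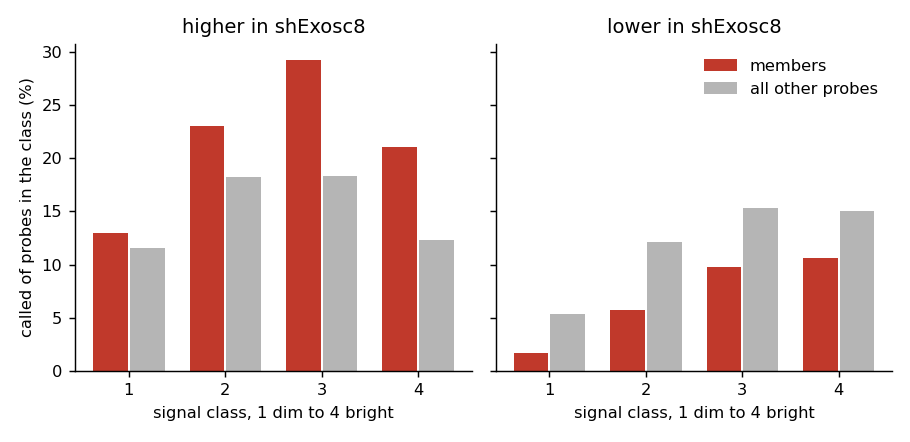
Bars give the percentage of probes called higher (left) or lower (right) in shExosc8, for members seen on all 6 arrays and for all other probes of the same mean signal, in 4 signal classes that each hold 122 or 123 members, from dim (1) to bright (4). Members reach 29.3% higher in class 3 against 18.3% of other probes, and stay below other probes for falls in every class.

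The split between rises and falls depended on how arrays were scaled. With the 75th percentile taken over all probes 115 members were higher and 105 lower (16.9% and 15.4%), where all probes gave 13.4% and 24.4%. With no scaling they were 73 and 215 of 681, where all probes gave 8.36% and 42.1%. With the normexp background correction and the 75th percentile they were 146 and 20 (21.4% and 2.94%), where all probes gave 16.6% and 7.86%. These settings shifted the median of all tested probes by -0.15, -0.5 and 0.12 on the log2 scale, from -0.08 in the reported setting. Under each of them the members had a larger share of rises and a smaller share of falls than all tested probes, a difference that was not tested. Without shControl replicate 2, 109 of 690 tested members were higher and 25 lower (15.8% and 3.62%), where all probes gave 12.2% and 4.98%, and 115 of the calls were shared with the reported ones. The count of calls ranged from 57 without shControl replicate 3 to 285 without shExosc8 replicate 3. All tested probes gave 7.8% higher and 4% lower in the first of these fits, and 20.5% and 22.1% in the other. Without shControl replicate 3 the share of rises among members was below that of all tested probes. Whichever array was left out, 41 rises and 6 falls were called, a count that was not made over all probes. With the slide column as a block, where columns 2 and 3 alone hold both groups, 5 of 681 members were higher and 2 lower. All tested probes gave 1.53% and 0.117%, so for rises the members were below that share and for falls above it. Exosc8 itself was not called in that fit (log2 -1.03, adjusted p 0.142). With no filter on dim probes 28 of 3118 members were higher and 5 lower, or 0.898% and 0.16%, where 2.56% and 0.507% of all probes were. In the authors' deposited table, 37 members were higher and 2 lower at an adjusted p under 0.05, or 1.19% and 0.0641%, where 2.74% and 0.517% of all probes were. Counted over all 3118 members, most of them dim, the share of rises was thus below that of all probes. All 174 members called here had the same direction in the authors' deposited table and 31 passed the threshold there.

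The rises were not equal on the 3 shExosc8 arrays. Against the control mean, the 124 members called higher had a median log2 of 1.46 on shExosc8 replicate 1, 1.47 on replicate 2 and 0.85 on replicate 3. Replicate 3 was the lowest of the shExosc8 arrays for 110 of the 124, replicate 1 for 9 and replicate 2 for 5. Replicate 3 is also the array with the most Exosc8 left (10169 against 7158 and 7080). For the 50 called lower the medians were -0.78, -0.76 and -0.58, and replicate 3 was the highest for 32. Whether the remaining Exosc8 has a part in this was not tested. Among the controls, replicate 2 had the highest value for 83 of the 124, the array with the raised detection.

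**Figure D3:**
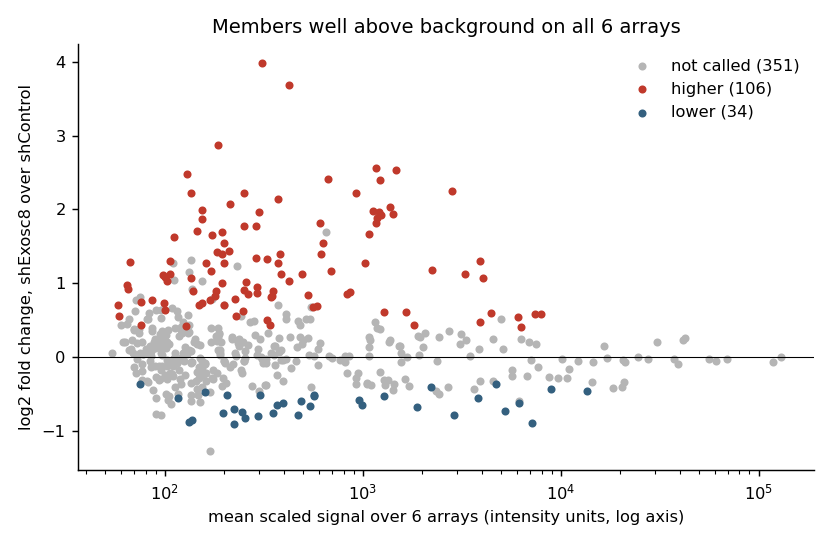
Each point is 1 of the 491 members seen on all 6 arrays, with mean scaled signal on a log axis and the log2 difference of shExosc8 over shControl on the vertical axis. The 106 called higher reach 3.98, the 34 called lower reach -0.91, and the brightest members lie near 0.

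Among members seen on all 6 arrays, the largest rise was in a region between Vps13c, a lipid transfer protein gene, and Rora, which encodes a nuclear receptor. Its probe covers bases 68400305 to 68400364 of chromosome 9 in mm9, 558.0 kb from the closest Vps13c probe and 826.0 kb from that of Rora. Its scaled signal was 1342, 1495 and 939 on the shExosc8 arrays and 61.2, 117.0 and 66.9 on the controls. Every shExosc8 array was far above every control, a difference of 15.8-fold (log2 3.98 ± 0.30, SE, n = 3 per group, adjusted p 0.000826). The second probe of that strand, whose sequence ends before the first begins, gave 1654, 1710 and 1239 against 87.9, 182.0 and 104.0. Its log2 was 3.68 ± 0.29 (adjusted p 0.000974). Unlike the first, it shares at least 25 bases with another probe of the array. Both calls were kept whichever array was left out. Vps13c itself went the other way, with a log2 of -0.80 (adjusted p 0.0107).

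Between Peg10, an imprinted gene derived from a retrotransposon, and Ppp1r9a, which encodes the actin-binding scaffold neurabin, the reverse strand rose on chromosome 6. The probe at 4843656 to 4843715 had 2831, 3287 and 2447 on shExosc8 and 365.0, 478.0 and 636.0 on the controls (log2 2.56 ± 0.23, adjusted p 0.00138). Its neighbour gave 3532, 4067 and 3089 against 487.0, 619.0 and 748.0 (log2 2.54 ± 0.19, adjusted p 0.000856). Replicate 3 of the controls was the highest control in both, and the groups stayed far apart. Both calls were kept whichever array was left out. By its length Ppp1r9a could reach this position. Its own probe was at 0.73 with an adjusted p of 0.114. Both reverse probes share at least 25 bases with another probe of the array, where signal of related sequences may be mixed.

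On chromosome 8 a forward probe between Cibar2 and Gse1 lies at 122814763 to 122814822, a position that Gse1 could reach by its length. It had 3982, 3023 and 1858 on shExosc8 and 504.0, 815.0 and 367.0 on the controls (log2 2.40 ± 0.38, adjusted p 0.00781). On the same chromosome a forward probe between the cadherin genes Cdh11 and Cdh5, at 106056457, had 7952, 7458 and 3890 against 1355, 1554 and 1014 (log2 2.25 ± 0.31, adjusted p 0.00536). It is 612.0 kb from the closer of the cadherin probes. On chromosome 10 a probe between Ndufa12, a gene of respiratory complex I, and Tmcc3 had 2792, 2279 and 1242 against 364.0, 594.0 and 359.0 (log2 2.22 ± 0.35, adjusted p 0.00769). The groups were apart in each of these members, with shExosc8 replicate 3 nearest the controls, and each call was kept whichever array was left out. Ndufa12 was at 0.04 (adjusted p 0.804) and Tmcc3 at 0.60 (adjusted p 0.0613), and by its length Tmcc3 could reach the probe.

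Other large rises were uneven between the shExosc8 arrays. Between Pcnx and Sipa1l1 on chromosome 12 the signal was 554.0, 1102 and 211.0 against 57.5, 89.8 and 63.1 (log2 2.88 ± 0.58, adjusted p 0.0161). Between Klf14, an imprinted transcription factor gene, and Mkln1 on chromosome 6 it was 249.0, 683.0 and 166.0 against 41.9, 74.9 and 52.3 (log2 2.48 ± 0.53, adjusted p 0.0192). In both, shExosc8 replicate 2 was several times replicate 3, and the calls were lost without shExosc8 replicate 1 or without shControl replicate 1 or 3 (adjusted p up to 0.0652 and 0.0724). The neighbours of the first, Pcnx (0.38, adjusted p 0.23) and Sipa1l1 (-0.38, adjusted p 0.179), were not called, and Sipa1l1 could reach the probe by its length.

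A reverse probe between Ubash3b, a phosphatase gene, and Sorl1, a sorting receptor gene, lies in the interval of the Mir100hg host transcript of Mir100, Mirlet7a-2 and Mir125b-1. Its signal was 1689, 3709 and 584.0 on shExosc8 and 262.0, 313.0 and 295.0 on the controls, a log2 of 2.41 ± 0.62 (adjusted p 0.0336). Both flanking genes rose too, Ubash3b at 2.13 (adjusted p 0.0031) and Sorl1 at 2.08 (adjusted p 0.000904). The member's call was kept only without shExosc8 replicate 3 and was lost for the 5 other arrays left out in turn, with an adjusted p up to 0.104.

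**Figure D4:**
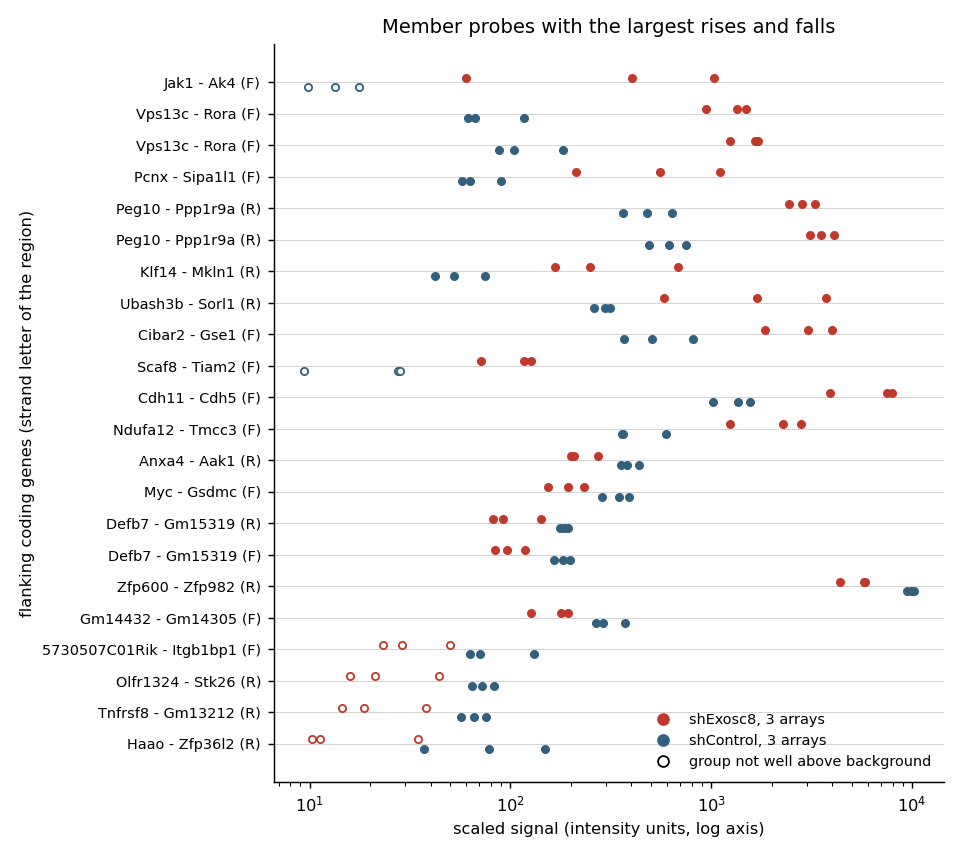
Each row is 1 member, named by its flanking coding genes and strand letter, with the scaled signal of the 3 shExosc8 arrays (red) and 3 shControl arrays (blue) on a log axis. Open circles mark a group in which no array was well above background. The 2 Vps13c to Rora probes run from 939 to 1710 in shExosc8 against 61.2 to 182.0 in shControl, and the falls above background in both groups are all under 2-fold.

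Where no array of a group was above background, only a bound can be given, the mean of the seen group over a floor set per array by the dimmest probes called above background. Adjusted p-values of such probes, in either direction, come from limma fits that include values not called above background. The filter let these probes in through 1 group only, so the p-values describe them and are no support for a change. Of the members seen in all 3 shExosc8 arrays and in no control, 2 were called. The probe between Jak1, a cytokine receptor kinase gene, and Ak4, a mitochondrial adenylate kinase gene, had 402.0, 1027 and 59.9 on shExosc8 and 9.8, 17.7 and 13.4 on the controls. It was at least 12.6-fold higher (adjusted p 0.0214), lies on chromosome 4 at 101019002 to 101019061 and sits in the interval that holds Mir101a. Its call was lost without shExosc8 replicate 1 or shControl replicate 1 or 3 (adjusted p up to 0.0774). A second probe of that name, complementary to the Mir101a hairpin over all 60 bases, was above background on no array. Between Scaf8, whose protein binds the tail of RNA polymerase II, and Tiam2 the signal was 117.0, 127.0 and 71.2 against 27.5, 28.2 and 9.39, at least 3.34-fold higher (adjusted p 0.0154). Its call was lost without shExosc8 replicate 1 or 2 (adjusted p up to 0.0605).

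In the other direction 13 called members were seen on all 3 controls and on no shExosc8 array, each near the detection limit. The largest bound was at least 2.43-fold lower, for a forward probe on chromosome 12 at 20647747, with 23.2, 28.8 and 50 on shExosc8 and 70.5, 62.8 and 131.0 on the controls (adjusted p 0.0412). A reverse probe between Haao and Zfp36l2 on chromosome 17 was at least 2.25-fold lower (adjusted p 0.0454) and one between Tnfrsf8 and Gm13212 on chromosome 4 at least 1.95-fold (adjusted p 0.022). A reverse probe in the interval of Firre, an X-linked nuclear noncoding RNA gene, had 15.9, 21.2 and 44.0 against 64.3, 71.8 and 82.8, at least 2.16-fold lower (adjusted p 0.026). The array's own Firre probe was at -0.20 (adjusted p 0.514). These calls were lost for 4 or 5 of the 6 arrays left out in turn (adjusted p up to 0.138). With normexp and the 75th percentile all 4 lost their call and the Firre interval probe was at 0.03. Outside the rule for named members and chosen after its values were seen, the probe opposite the Mir18 hairpin had 12, 15.8 and 18.3 against 57.6, 88.2 and 53.9 and was at least 1.94-fold lower (adjusted p 0.00316). The Mir17hg host transcript, which holds Mir18 on the other strand, was at 0.07 (adjusted p 0.764).

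Falls seen on all arrays were smaller than the rises. The strongest by fitted value was a forward probe on chromosome 2 at 176289291, between the predicted genes Gm14432 and Gm14305, with 126.0, 178.0 and 193.0 against 290.0, 373.0 and 267.0 (log2 -0.91 ± 0.21, adjusted p 0.0244). Gm14432 fell by 1.07 (adjusted p 0.00555), and Gm14305 was at -0.62 (adjusted p 0.081). On chromosome 4 a reverse region fell between the zinc finger genes Zfp600 and Zfp982, where the probe at 146531704 had 5740, 5849 and 4363 against 9457, 9861 and 10210 (log2 -0.90 ± 0.14, adjusted p 0.00817). All 5 tested probes of that name fell, from -0.90 to -0.62, and so did Zfp600 (-1.12, adjusted p 0.0184) and Zfp982 (-1.09, adjusted p 0.0116). That interval is no gene desert, since RefSeq places 7 further coding genes of mostly zinc finger type in it.

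On chromosome 6 the reverse strand between Anxa4, an annexin gene, and Aak1, which encodes a kinase of clathrin-mediated uptake, fell at all 5 probes. The largest fall had 206.0, 201.0 and 272.0 against 355.0, 438.0 and 380.0 (log2 -0.80 ± 0.16, adjusted p 0.0164). All controls lay above all shExosc8 arrays. The weakest of the 5, at 86799052 (-0.55 ± 0.15, adjusted p 0.0374), matches the RefSeq promoter window of Aak1 on the opposite strand. The array's probe for the noncoding 2610306M01Rik, on the same strand, was at -0.71 (adjusted p 0.0259). Anxa4 fell by 0.57 (adjusted p 0.0335) and Aak1 was at -0.46 (adjusted p 0.12). The distance rule thus took in probes at the start of a coding gene whose own probe lies 143.0 kb away.

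Between the beta-defensin gene Defb7 and Gm15319 on chromosome 8, probes of nearby regions moved both ways. A forward probe at 19700158 had 96.3, 83.5 and 118.0 against 182.0, 198.0 and 165.0 (log2 -0.88 ± 0.16, adjusted p 0.0117). The next probe of the same name, at 19700230, had 966.0, 760.0 and 516.0 against 320.0, 410.0 and 278.0 (log2 1.13 ± 0.26, adjusted p 0.0254). A reverse probe at 19692533 fell by 0.86 (± 0.21, adjusted p 0.0309) and another at 19800534 rose by 1.69 (± 0.17, adjusted p 0.00202). Probes of 1 name and strand were thus called in opposite directions, as in 4 of the 161 names with at least 2 tested probes. Of the 161 names 12 had every probe higher, 4 every probe lower, 53 some probes in 1 direction and 88 no call.

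A forward probe between Myc, the proto-oncogene, and Gsdmc on chromosome 15 lies at 62086046, in the interval that holds the noncoding Pvt1. Its signal was 154.0, 231.0 and 193.0 against 348.0, 284.0 and 387.0 (log2 -0.82 ± 0.19, adjusted p 0.0255). Of 16 tested probes of that interval 4 were lower and 1 higher. On the reverse strand of the same region 1 probe was higher, at 0.43 ± 0.12 (adjusted p 0.045), and another had 35.1, 30.4 and 23.1 against 61.7, 85.2 and 67.4, above background on all controls and on no shExosc8 array. Among the 56 regions with both strands tested it was the only one in which a probe of 1 strand was called opposite to a probe of the other. Both tested Pvt1 probes stayed uncalled, at 0.16 (adjusted p 0.426) and -0.22 (adjusted p 0.362). Myc was at -0.26 (adjusted p 0.157).

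Of the 6 largest falls, the Zfp600 to Zfp982 probe kept its call whichever array was left out. The Defb7 forward probe lost it without shExosc8 replicate 1 (adjusted p 0.0506). The Myc to Gsdmc probe lost it without shExosc8 replicate 1 or shControl replicate 1 or 3 (adjusted p up to 0.0902), and the Anxa4 to Aak1 probe without shExosc8 replicate 1 or 2 or shControl replicate 2 or 3 (up to 0.0673). The Gm14432 probe (up to 0.0695) and the Defb7 reverse probe (up to 0.103) kept theirs only without shExosc8 replicate 3.

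Rises came in runs in several intervals, where neighbouring probes can report 1 transcript. Between Lhfpl3 and Kmt2e, a histone methyltransferase family gene, on chromosome 5 all 6 tested probes rose, by 1.78 to 1.98. The first, at 22889980, had 576.0, 626.0 and 280.0 against 162.0, 159.0 and 97.4 and was the dimmest of the 6. The brightest on shExosc8 replicate 2, at 22890323, had 2834, 3092 and 1575 against 684.0, 699.0 and 486.0 (log2 1.96 ± 0.29, adjusted p 0.00658). Of the 6 probes 5 share a run of at least 25 bases with another probe, so they are not separate measurements.

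Between Thap1, a zinc finger gene, and Zfp703 on chromosome 8 all 6 tested probes rose by 0.48 to 0.71. The brightest, at 27933671, had 10637, 10045 and 8502 against 6746, 6709 and 6030 (log2 0.58 ± 0.13, adjusted p 0.0212). The groups were apart although the difference was small. Between Ptger4, a prostaglandin receptor gene, and Dab2 on chromosome 15 all 3 tested probes rose by 1.55 to 1.71, one of them at 5985531 with 328.0, 297.0 and 190.0 against 82.3, 109.0 and 58.4. Between Sucnr1, the succinate receptor gene, and Mbnl1, which encodes a splicing factor, 3 of 3 rose by 1.17 to 1.42, and by its length Mbnl1 could reach them. The same count held between Mycbp2 and Scel (0.73 to 0.89).

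Between Ndfip2 and Spry2, a growth factor signalling inhibitor gene, 3 of 3 tested probes were called higher, over both strands. The forward probe at 106022444 on chromosome 14 had 4282, 3509 and 1430 against 629.0, 879.0 and 558.0 (log2 2.04 ± 0.43, adjusted p 0.0183). The reverse probe at 106022296 was at 1.55 ± 0.24 (adjusted p 0.0069), with 1 of 3 controls above background. The filter let this probe in through shExosc8 alone, so its call is no support for a rise on the reverse strand. The reverse signal of 72.4, 112.0 and 97.7 was well under that of the forward probe, though levels of different probes are not comparable.

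Between Klf14 and Mkln1, where RefSeq places Mir29a, Mir29b-1 and the noncoding Lncpint, 8 of 13 tested probes rose and 0 fell. Their log2 differences ran from 0.74 to 2.48 over both strands. All forward rises came from probes above background on 3 shExosc8 arrays and on 1 control, which the filter let in through shExosc8 alone. They are thus no support for a rise on that strand. The 3 reverse probes at 31007197, 31007262 and 31007541, in a region of their own, had 1.39 ± 0.24 (adjusted p 0.0106), 1.28 ± 0.22 (adjusted p 0.00962) and 0.74 ± 0.21 (adjusted p 0.0433). In the longer Cibar2 to Gse1 interval 5 of 19 tested probes rose and 0 fell. The forward probe at 122819718 was bright and level there, with 4101, 3688 and 4255 against 4165, 3928 and 3156 (0.11 ± 0.14, adjusted p 0.592). It lies under 5 kb from the forward probe that rose by 2.40 and carries the same name. Between Tiam1 and Sod1, the superoxide dismutase gene, 4 of 21 tested probes rose and 0 fell, and between Chd2, a chromatin remodeller gene, and Fam174b 3 of 5 did.

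The letter of each region matched the strand of its probes for all 16063 placed region probes, so both strands of 1 region can be compared on each array. Both strands were tested in 56 of the far regions. The strand difference was called in 9 of them (16.1%) by limma on the forward minus reverse log2 value, where 12.4% of all 411 region pairs were called. The forward strand had the more positive difference in 5 and the reverse strand in 4. The signs of both strands agreed in 30 of 56, and across the 56 regions, which share arrays and depth, the strands correlated at r = 0.274. In 33 regions no probe was called on either strand, in 18 on 1 strand only and in 4 both strands had a probe called higher. The last of the 56 is the region between Myc and Gsdmc described above. Among the 4, a called probe of the Ndfip2 to Spry2 and of the Jak1 to Ak4 region was let in through shExosc8 alone.

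**Figure D5:**
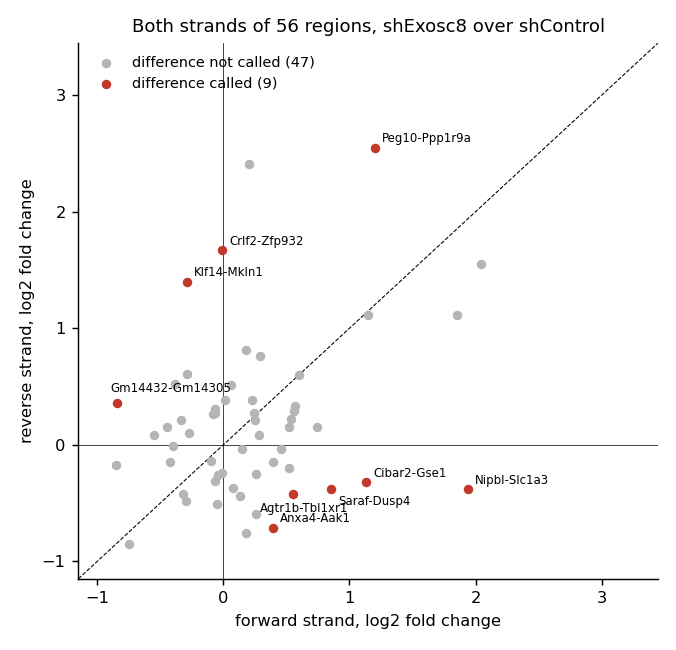
Each point is 1 of the 56 regions with both strands tested, with the mean log2 difference of shExosc8 over shControl of its forward probes on the horizontal and of its reverse probes on the vertical axis. The dashed line marks equal change. The 9 regions with a called strand difference, in red, lie away from it, with Nipbl to Slc1a3 at 1.94 and -0.38 and Peg10 to Ppp1r9a at 1.20 and 2.55.

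The largest strand difference was between Nipbl, which encodes the cohesin loader, and Slc1a3, a glutamate transporter gene, on chromosome 15. The forward probe had 3930, 3710 and 1464 on shExosc8 and 737.0, 884.0 and 580.0 on the controls. The reverse strand, over 3 probes, had 622.0, 608.0 and 777.0 against 813.0, 772.0 and 1038. The forward strand rose while the reverse strand stood at -0.38, a difference of 2.32 ± 0.50 (SE, adjusted p 0.0253). The overlapping reverse probe printed above was at -0.46 (adjusted p 0.0943), against 1.94 ± 0.40 (adjusted p 0.0179) for the forward probe complementary to it over 30 bases.

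The smallest p was between Cibar2 and Gse1, where the forward strand over 3 probes had 1679, 1438 and 1160 against 646.0, 765.0 and 536.0. The reverse strand had 162.0, 187.0 and 110.0 against 207.0, 217.0 and 143.0. The difference was 1.45 ± 0.24 (adjusted p 0.0125). For the pair printed above, complementary over 53 bases, the forward probe was at 2.40 and the reverse at -0.39 (adjusted p 0.306). Between Klf14 and Mkln1 the order was the other way, with 1171, 1245 and 683.0 against 391.0, 391.0 and 354.0 on the reverse strand and 123.0, 114.0 and 98.0 against 112.0, 182.0 and 123.0 on the forward (difference -1.69 ± 0.28, adjusted p 0.0133). That forward mean holds 2 probes. The one at 31288066 was at -0.82 (adjusted p 0.15), above background on 1 shExosc8 array and 3 controls. The filter let it in through shControl alone, and it widens the difference. The other, seen on all arrays, was at 0.24 (adjusted p 0.103). The difference without the first probe was not tested.

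Between Peg10 and Ppp1r9a both strands were higher. The forward strand had 206.0, 210.0 and 101.0 against 61.7, 59.6 and 98.1 and the reverse 3162, 3656 and 2750 against 421.0, 544.0 and 690.0. The reverse strand differed by more (difference -1.35 ± 0.29, adjusted p 0.0248). On the forward strand shExosc8 replicate 3 lay close to shControl replicate 3, so that the rise there rested on the other arrays. In the overlapping pair the forward probe rose by 1.12 ± 0.30 (adjusted p 0.0354) and the reverse by 2.56.

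Between Saraf, a regulator of calcium entry, and Dusp4, a phosphatase gene of the MAP kinase pathway, the forward strand had 1201, 1164 and 994.0 against 604.0, 645.0 and 615.0. The reverse had 76.0, 59.5 and 67.9 against 83.9, 106.0 and 76.8 (difference 1.23 ± 0.24, adjusted p 0.0206). Between Crlf2, a cytokine receptor gene, and Zfp932 the reverse probe had 2429, 2324 and 1232 against 556.0, 672.0 and 583.0, while the forward probe was near the detection limit (difference -1.68 ± 0.38, adjusted p 0.0317). That reverse probe matches the RefSeq promoter window of 4930522L14Rik on the same strand. The other called differences were between Anxa4 and Aak1 (1.10 ± 0.26, adjusted p 0.0317), Gm14432 and Gm14305 (-1.20 ± 0.31, adjusted p 0.0402) and Agtr1b and Tbl1xr1 (0.97 ± 0.25, adjusted p 0.0414). In the last region no single probe was called. Some strand means hold a probe that the filter let in through shControl alone. This holds for the reverse strand of the Cibar2, Saraf, Gm14432 and Agtr1b regions and the forward strand of the Crlf2 region.

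In the remaining printed pairs 1 strand was called and its complement was not, which is no test of a difference between the strands. Over all tested probes of these regions the strand difference was not called. By limma it was 0.49 ± 0.41 (adjusted p 0.442) between Pramel51 and Adck1 and -0.90 ± 0.32 (adjusted p 0.0995) between Osbpl3 and Cycs. Between Pramel51 and Adck1 the forward probe had 274.0, 225.0 and 118.0 against 50.8, 72.4 and 68.7 (1.62 ± 0.33, adjusted p 0.0172). The reverse probe had 92.7, 93.0 and 34.9 against 70.3, 91.0 and 50.8 (-0.04, adjusted p 0.953). Between Osbpl3, a lipid-binding protein gene, and Cycs, which encodes cytochrome c, the reverse probe had 196.0, 169.0 and 139.0 against 57.9, 100.0 and 53.4 (1.30 ± 0.27, adjusted p 0.0182). The forward probe had 241.0, 248.0 and 271.0 against 228.0, 289.0 and 254.0 (-0.01, adjusted p 0.938). In the pair not printed, between Dtna and Mapre2, the forward probe was lower (-0.37 ± 0.10, adjusted p 0.0375) and the reverse probe was at -0.01 ± 0.31 (adjusted p 0.979). The strand difference of that region was not called either (-0.39 ± 0.32, adjusted p 0.442). The strand calls rested on few arrays, since 17 regions were called without shExosc8 replicate 3, 4 without shControl replicate 2, 1 without shExosc8 replicate 2 or shControl replicate 1, and 0 without shExosc8 replicate 1 or shControl replicate 3.

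None of the 5 brightest members was called. The forward probe on chromosome 17 at 39983218 had 122649, 139524 and 127468 against 151990, 125059 and 115566 (-0.00 ± 0.14, adjusted p 0.987). It and 3 more of the 5 brightest lie in a stretch where the array also has probes for the ribosomal RNA transcripts Rn45s (-0.05 and -0.03) and Rn18s (0.48, adjusted p 0.0912). The other is between the transcription factor genes Sp4 and Sp8, with 115122, 131395 and 102199 against 123190, 119293 and 121333 (-0.07 ± 0.12, adjusted p 0.693). The 5 ran from -0.07 to -0.00.

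The 3 probes farthest from any coding probe, 2097 kb away on chromosome 1 between Dsel and Cntnap5a, were too dim to test, with 7.54 to 25.2 on all arrays. The 3 members just inside the distance rule were also untested, 1 near Ptprc and 2 near Atp11b. Of the 3 region probes just outside it, 1 was tested, between Enah and Srp9, with 1191, 2906 and 900.0 against 776.0, 812.0 and 686.0 (0.95 ± 0.42, adjusted p 0.131).

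Distance, strand, chromosome and base composition of the members were not used to call them. Among the 491 the rises were 75 of 308 probes 100 to 200 kb from a coding probe, 19 of 147 at 200 to 400 kb and 12 of 36 beyond 400 kb. The falls were 20, 12 and 2 in those classes. The forward strand held 44 rises and 14 falls among 231 probes and the reverse strand 62 and 20 among 260. The highest shares of rises by chromosome, picked after the values were seen, stand beside 21.6% of the 491. Chromosome 8 had 23 rises among 55 probes (41.8%) in 18 names and 12 loci. Chromosome 5 had 11 of 25 (44%) in 7 names and 6 loci, with 6 of these probes from the Lhfpl3 to Kmt2e run. Chromosome 7 had 5 of 12 (41.7%) and chromosome 9 had 7 of 17 (41.2%). The lowest were the X chromosome with 0 of 18, chromosome 11 with 0 of 9 and chromosome 17 with 1 of 36. Shares of all probes on each chromosome were not counted. Median GC content was 45.0% in the higher, 43.3% in the lower and 45.0% in the uncalled members. The letters AATAAA, the usual polyadenylation signal, were in 3 of 124 higher probes (2.42%), 2 of 50 lower and 11 of 507 uncalled ones (2.17%), as read on the probe strand, against 3.92% of all region probes. Among the 491, probes that could lie inside a coding gene were higher in 24.3% and lower in 6.08% of 148, the remaining 343 in 20.4% and 7.29%. Of the 3118 members 752 share at least 25 bases with another member and 126 with a probe outside the set, where signal of related sequences may be mixed. Besides the Vps13c to Rora and Peg10 to Ppp1r9a probes so marked above, such sharing holds for 4 named rises. These are the Cibar2 to Gse1, Pcnx to Sipa1l1, Ubash3b to Sorl1 and Scaf8 to Tiam2 probes.

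Flanking coding genes were read from their own probes. For names called higher, 18 of 76 tested flanking genes were higher (23.7%) and 7 lower (9.21%). For names called lower, 3 of 22 were higher (13.6%) and 7 lower (31.8%), and for uncalled names 35 of 180 (19.4%) and 25 (13.9%). Across 192 names the difference of a region and of its closest coding gene correlated at r = 0.0418 and rho = 0.152. Regions share arrays and flanking genes, so this is a description only.

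Genes that process or restrain such transcripts are read beside the 14.7% higher and 13.1% lower of all tested probes, with no test of a list. Of 25 tested genes for nuclear RNA surveillance 10 were lower (40%) and 0 higher. These were Exosc8 itself, the core subunits Exosc1 (-0.66), Exosc3 (-0.51) and Exosc7 (-0.41), the nuclease Dis3 (-0.34), Mphosph6 (-0.82), Zcchc8 of the nuclear targeting complex (-0.85), Zcchc7 (-0.47), the poly(A)-binding Pabpn1 (-0.39) and the nuclease Xrn2 (-0.47). Of 22 genes for transcript cleavage and termination, a list that also holds Xrn2, 7 were lower (31.8%) and 0 higher, among them the Integrator subunits Ints5 (-0.75) and Ints9 (-0.50). Of 24 named long noncoding RNAs 3 were higher (12.5%) and 4 lower (16.7%), shares near those of all tested probes. The higher ones were Neat1 (3.02 ± 0.38), Malat1 (1.67 ± 0.41) and Peg13 (1.44 ± 0.20). The lower ones were the snoRNA hosts Snhg3, Snhg7, Snhg12 and Dancr, while the snoRNA hosts Gas5 (0.18), Snhg1 (0.18), Snhg5 (-0.28) and Snhg6 (-0.44) were not called. Neat1 and Malat1 are abundant nuclear RNAs and Peg13 is imprinted.

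Markers of other cells moved with the group. All 12 erythroid markers were tested, 4 were higher, among them Alas2 (1.67), and Epor was lower. The summed signal of 5 megakaryocyte markers was 247609 to 339500 on shExosc8 and 25908 to 36113 on the controls, and all 5 were higher. For 6 neutrophil and monocyte markers it was 214941 to 292185 against 62050 to 75928, with all 6 higher. Of 4 tested macrophage markers 3 were higher, of 4 mast cell markers 3, of 2 hepatocyte markers 1, of 3 lymphoid markers 1 and of 2 endothelial markers 1, and the defining genes Vcam1 and Cdh5 were above background on no array. In bulk RNA a change in the share of a cell type and a change in RNA per cell cannot be told apart. The part of these cells in the changes of the regions was not tested.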

How the data were processed

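Each array measured Cy3-labelled RNA of 1 sample, in 3 shExosc8 and 3 shControl samples grouped by the treatment in their labels. The deposited spot intensity values are the processed signals of Agilent Feature Extraction on build mm9, per the file headers, with spatial background subtracted and values near 0 replaced by surrogates. The deposited table of the series adds the authors' log2 fold changes and p-values, for which the submitters' processing notes name limma. The sources used here do not say how those were normalized.

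Control spots and outlier calls were dropped and spots of 1 probe averaged. From the log2 signal each array's 75th percentile over 21615 probes above background on all 6 arrays was subtracted. The 24836 probes above background on every array of at least 1 group were tested with limma 3.58.1 in R 4.3.3 (lmFit and eBayes, two-sided, Benjamini-Hochberg, threshold 0.05). For regions with both strands tested, the forward minus reverse mean was fitted likewise over 411 pairs. On simulated data of 24836 probes the first step recovered 36 of 100 probes given a log2 shift of 1 and 71 of 100 given 2. It made 8 false calls among the unchanged probes. The share of changed probes there was far below the 27.8% called in the data, so the recovery need not hold for the reported fit. The number of arrays limits the precision.

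Named are the 10 largest rises and 6 largest falls called with groups apart and seen on all arrays, the 4 largest bounds in each direction, the 5 brightest members, the 6 smallest strand p-values, regions with strands called in opposite directions, members at the distance limit and the 3 farthest. Runs of called probes, the overlapping pairs and the further strand differences were chosen after their values were seen. Members and lists were chosen with earlier results of these data known. Flanking genes and those between them come from the RefSeq table of GRCm38.p6, used for names, lengths and order alone. Promoter windows and miRNA hairpins are RefSeq's. The level of 1 marker gene is not reported here.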

Additional observations from a re-analysis of the deposited data

How the results depend on the processing

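Leaving out arrays in turn gave 57 to 285 calls among the members (46 to 211 higher, 11 to 74 lower) and 0 to 17 strand differences, against 174 (124 and 50) and 9 reported. All tested probes gave 7.8% to 20.5% higher and 3.48% to 22.1% lower in those fits. With no scaling there were 288 calls (73 higher, 215 lower), with no filter on dim probes 33 (28 and 5, strand 0), with the slide column as a block 7 (5 and 2, strand 0, Exosc8 at -1.03) and at an adjusted p under 0.01 there were 41 (35 and 6, strand 0). Of all tested probes 1.53% were higher and 0.117% lower with the slide column as a block, and 6.74% and 2.2% at the stricter threshold. Falls numbered 105 with the percentile over all probes and 20 with normexp and the 75th percentile. With the mean signal above the median as filter 1 strand difference was called. Other distances gave 352 calls at 50 kb (242 and 110, strand 22), 60 at 200 kb (39 and 21, strand 1) and 52 at 100 kb from every probe outside the region set (42 and 10, strand 2). Each distance admits another number of probes to the same fit, in which 14.7% of all tested probes were higher and 13.1% lower. These counts are thus not shares and describe no effect of distance. With 1 probe per name, in a fit for which no share of all probes is given, there were 109 (22 lower). The authors' deposited table gave 39 (37 and 2), where 2.74% of all probes were higher and 0.517% lower. The distance, probe and threshold settings change how many members count, and for the others the cause was not tested.

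Signs turned for the 5 brightest members, all near 0, and for 1 called member. The brightest probes reached 0.02 (with normexp and either scaling), 0.01, 0.02 and 0.03, and with 1 array left out they ranged from -0.16 to 0.01 (Sp4 to Sp8), and on chromosome 17 from -0.13 to 0, -0.09 to 0.01, -0.08 to 0.02 and -0.1 to 0.11. The Firre interval probe, called lower with only a bound, was at 0.03 with normexp and the 75th percentile. Of 22 called named members, 22 kept their call under the other scalings without normexp and with the intensity trend, 17 and 20 with normexp, 7 with no filter, 5 with the slide column as a block and 8 whichever array was left out.

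Deviations of same-numbered arrays correlated at 0.0911, 0.244 and 0.34 for replicates 1, 2 and 3. Those of differently numbered arrays ran from -0.291 to 0.157. The same-numbered control was the closest for shExosc8 replicates 2 and 3, while shExosc8 replicate 1 was closest to shControl replicate 2 (0.157). Whether the replicate numbers pair the samples was not tested. With the replicate block 187 members were called (129 higher, 58 lower) and 9 strand differences. Detection over background limits the rest, since 2437 of 3118 members were too dim to test.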
